A study of Mus musculus with 12 samples.

Results

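The transcriptome described here was that of C2C12 myotubes kept in horse serum medium, the control condition of the study. All 6 libraries labelled as the 4% horse serum control, numbered 1 to 6, were used out of 12 in the series, and every gene of the deposited count table was included. C2C12 is an established mouse myoblast line. The cells were grown close to confluence, differentiated for 5 days in medium with 2% horse serum and then kept for 24 h in medium with 4% horse serum, and total RNA was sequenced after removal of ribosomal RNA. The remaining 6 libraries of the series, from myotubes given a stem cell secretome, were not compared. A C2C12 culture is a single immortal line without nerve, vessel or resident immune cells, and the labels did not say whether the 6 libraries came from separate cultures. The spread between libraries given below may therefore be technical.

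When serum is lowered, confluent C2C12 myoblasts leave the cell cycle under the control of the MYOD family of transcription factors, fuse into multinucleated myotubes and build sarcomeres, the repeating units of actin, myosin and titin that contract. Cultured myotubes are known to use embryonic and neonatal isoforms of many contractile proteins, and a part of the cells stays mononucleated. The same cells secrete collagens, glycoproteins and the enzymes that process them into a matrix.

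The total count per library ranged from 13285472 to 18254882, with a median of 15533472, and library 6 was the deepest. Of 55487 genes listed, 27277 had at least 1 count in any library, 17556 had a count in all 6 and 28210 had none. Library 6 stood apart from the others. On the first principal component of log2 CPM (counts scaled to library size by the trimmed mean of M values, TMM), which held 65.7% of the variance, library 6 was at 49.8 and the other 5 libraries lay between -14.6 and -6.5. The SD of the log2 difference over genes was 0.227 to 0.269 for each pair of libraries 1 to 5 and 0.517 to 0.583 for each pair with library 6. No pair agreed within sampling noise, since chi-square per degree of freedom was 3.87 to 9.28 among libraries 1 to 5 and 67.9 to 83.6 with library 6, so all 6 were kept as separate samples. Library 6 had the lowest CPM of the 6 in 4360 of 13104 genes (33.3%) and the highest in 4834 (36.9%). Each of the other libraries was lowest in 1358 to 2748 genes and highest in 1337 to 2202. The values below are therefore given for libraries 1 to 5 and for library 6 side by side. No test of library 6 as a group of its own against the others was made, because the labels put all 6 in 1 group. A rule that flags a single distant value, applied to all 6 libraries alike, is reported in a later section.

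The label of the samples was checked against marker genes. Levels between genes are given in TPM, which divides counts by gene length and scales each library to the same sum. On TPM library 6 was lowest in 2126 of 13096 genes (16.2%) and highest in 8232 (62.9%), and on shares of the total count it was lowest in 22.6% and highest in 51.6% of 13104 genes, so the place of library 6 depended on the scale for many genes. Genes of the last section are treated there. Of the other genes described below in TPM, Eef1a1, Itga7, Myog, Rbm24 and Utrn were highest in library 6 on TPM but lowest on CPM. Ankrd1, Cdkn1a, Chrna1, Col3a1, Col6a1, Malat1, Rrm2 and Top2a were highest there on TPM but inside the range of the others on CPM, and Des, Itgb1, Myf5, Mymk, Mymx, P4hb and Rplp1 were inside the range on TPM but lowest on CPM. Myotube markers were present in every library at levels that differed widely between genes. The ryanodine receptor Ryr1 was at 15.9 to 23.2 TPM over the 6 libraries, while Mylpf and Myog were abundant. Mylpf, the fast regulatory myosin light chain, was at 5486, 5807, 5785, 6006 and 5779 TPM in libraries 1 to 5 and at 3177 TPM in library 6. Myog, the transcription factor of terminal muscle differentiation, was at 1266, 1332, 1278, 1257 and 1257 TPM in libraries 1 to 5 and at 1398 TPM in library 6. Most markers of other cell types were absent or low. Exceptions included Scx, S100a4, Pdgfrb and 3 smooth muscle genes with a mean of at least 100 TPM, Acta2 being 1 of them. Of 14 macrophage and leukocyte genes, 2 reached a mean of 1 TPM, namely Cd68 and Cd14, while Adgre1 had no count and Ptprc had 0.00815 TPM in library 3 and none in the other 5. The 14 genes together held 0.000874% to 0.000971% of counts in libraries 1 to 5 and 0.00113% in library 6. Among 12 endothelial and pericyte genes 2 reached 1 TPM, with Kdr and Emcn at 0. Their sum was 0.0102% to 0.015% of counts in libraries 1 to 5 and 0.0314% in library 6. Pdgfrb, a receptor gene of pericytes, was at 26.9 to 42.6 TPM in libraries 1 to 5 and 107 TPM in library 6. Among 10 adipocyte genes 2 reached 1 TPM, Cebpa and Pparg, and Plin1 was at 0, with a sum of 0.00351% to 0.00389% and, in library 6, 0.00517% of counts. Among 10 neural genes 1 reached it, Tubb3, with a sum of 0.000294% to 0.000502% and, in library 6, 0.000838%. The bone and cartilage list had 5 of 13 genes at 1 TPM, led by the tendon factor Scx at 110 to 140.1 TPM in libraries 1 to 5 and 228.6 TPM in library 6, and summed to 0.014% to 0.0166% of counts in libraries 1 to 5 and 0.0246% in library 6.

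Fibroblast and smooth muscle lists were less clear-cut. Of 12 fibro-adipogenic genes 7 reached 1 TPM, but the sum was dominated by S100a4, a calcium-binding protein, at 2391 to 2893 TPM in libraries 1 to 5 and 3948 TPM in library 6. The receptor Pdgfra, which defines these cells in tissue, was at 1.86 to 2.76 TPM in libraries 1 to 5 and 6.08 TPM in library 6, and Thy1 was at 0.0458 TPM in library 1 and at 0 in the other 5. The list took 0.0776% to 0.0911% of counts in libraries 1 to 5 and 0.114% in library 6. Of 10 smooth muscle genes 8 reached a mean of 1 TPM and 3 reached 100 TPM. Acta2, the smooth muscle alpha actin that myogenic cells also make, was at 1569, 1843, 1890, 1715 and 1798 TPM in libraries 1 to 5 and 2582 TPM in library 6, whereas Myh11, the smooth muscle myosin heavy chain, stayed at or below 0.204 TPM in every library. That list held 0.395% to 0.438% of counts in libraries 1 to 5 and 0.457% in library 6. The cell types of these lists can share genes with myoblasts, and their part in any result was not tested.

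A mean of at least 1 TPM was reached by 14166 of 55227 annotated genes (25.7%) and by 11367 of 21961 nuclear protein-coding genes (51.8%). Only 1050 genes reached 100 TPM and 82 reached 1000 TPM. The counts were concentrated on few genes. The 91 most abundant genes held 25% of counts, 673 held 50%, 2593 held 75% and 5420 held 90%. The 10 most abundant genes took 11.9% to 12.6% of counts in libraries 1 to 5 and 9.13% in library 6, and the 100 most abundant took 26.3% to 27.0% and 22.4%.

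By GENCODE biotype, nuclear protein-coding genes held 88.7% ± 1.18 of counts (SD, n = 6), with a range of 87.8% to 88.6% in libraries 1 to 5 and 91.1% in library 6. Long noncoding genes held 2.61% to 2.91% in libraries 1 to 5 and 1.90% in library 6. The miscellaneous structured RNAs, led by the 7SK and 7SL RNAs, held 2.25% to 2.55% in libraries 1 to 5 and 1.93% in library 6. Mitochondrial ribosomal RNA took 1.81% to 2.28% in libraries 1 to 5 and 1.12% in library 6, and mitochondrial messenger RNA took 1.88% to 1.96% and 1.31%. All 4 noncoding or mitochondrial classes were thus lower in library 6 than in each other library. Single genes held much of these shares. Rn7sk, the 7SK RNA, held 1.92% to 2.21% of counts in libraries 1 to 5 and 1.59% in library 6. The long noncoding H19 was at 12870 to 16420 CPM in libraries 1 to 5 and 5078 CPM in library 6. The mitochondrial messenger mt-Co1 was at 17880 to 18660 and 11080 CPM. Shares of the other members alone were not computed, so the lower class shares are not a result for them. Ribozymes, with 1.29% to 1.6%, and small RNAs, with 0.330% to 0.434%, overlapped, library 6 lying at 1.45% and 0.392%. Pseudogenes held 0.651% to 0.706% in libraries 1 to 5 and 0.614% in library 6. Nuclear ribosomal RNA, the target of the depletion, was a trace, at 0.0284%, 0.031%, 0.00879%, 0.0299% and 0.18% of counts in libraries 1 to 5 and 0.0643% in library 6, and library 5 was highest.

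On the TPM scale the classes stood in another order, because the abundant structured RNAs are short. Nuclear protein-coding genes took 54.6% to 56.4% of TPM in libraries 1 to 5 and 58.6% in library 6. Miscellaneous RNAs took 15% to 16.4% in libraries 1 to 5 and 13.8% in library 6, and ribozymes took 8.72% to 10.7% and 10.5%. Every TPM given for a messenger RNA is therefore a share of a total of which short structured RNAs held a large part.

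The gene with the highest TPM was Rn7sk, the 7SK RNA that restrains transcription elongation, at 132000, 125000, 137200, 140200 and 130100 TPM in libraries 1 to 5 and 110500 TPM in library 6. Rpph1, the RNA subunit of ribonuclease P, came next at 101300, 86950, 106400, 104900, 98450 and 104500 TPM in libraries 1 to 6. Rn7sk was above Rpph1 within each library, and Rpph1 in library 6 lay inside the range of the others. Of the 100-base windows of Rn7sk and Rpph1, 61.2% and 60.9% were also found in other annotated genes, so both levels are uncertain. Gm23935, an annotated microRNA gene of only 57 bases, was next with 35380 to 63510 TPM over the 6 libraries. A level per length is uncertain for a gene this short.

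The mitochondrial genome gave the next genes. mt-Co1, subunit 1 of cytochrome c oxidase, was at 24120, 24840, 25900, 24690 and 24820 TPM in libraries 1 to 5 and 17810 TPM in library 6. mt-Rnr2, the large mitochondrial ribosomal RNA, was at 21670, 25200, 25280, 27580 and 22750 TPM and, in library 6, at 14640 TPM. Other mitochondrial messenger RNAs were far lower. mt-Nd1, a complex I subunit, was at 746 to 847 TPM in libraries 1 to 5 and 1055 TPM in library 6, and mt-Cytb, of complex III, at 464 to 537 TPM and 688.2 TPM, so both were highest in library 6 while mt-Co1 was lowest there. mt-Co2, like mt-Co3 and mt-Atp6 named after its values were seen, was at 27.3 to 40.6 TPM in libraries 1 to 5 and 89.4 TPM in library 6. Of its 100-base windows 99.5% were also found in another annotated gene, the nuclear copy Gm28661 leading, against 30.8% for mt-Co1 and 0 for mt-Nd1 and mt-Cytb. Levels of mt-Co2 are uncertain for that reason, and so are those of mt-Co3 (99.9% of windows shared) and mt-Atp6 (99.5%).

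The long noncoding RNA H19, an imprinted transcript of embryonic muscle, was at 13580, 12470, 11460, 11420 and 11220 TPM in libraries 1 to 5 and 5124 TPM in library 6. It was the most abundant long noncoding RNA and ranked above every messenger RNA of the nuclear genome in libraries 1 to 5, but not in library 6. Malat1, a nuclear speckle RNA, was at 1948 to 2171 TPM in libraries 1 to 5 and 2421 TPM in library 6. The list of 28 long noncoding RNAs known in muscle or in nuclei had 23 members at 1 TPM and held 2.11% to 2.42% of counts in libraries 1 to 5 and 1.45% in library 6.

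Among nuclear messenger RNAs the highest TPM belonged to Eef1a1, the elongation factor that brings transfer RNA to the ribosome, with 9532, 9385, 9863, 9169, 9588 and 9906 TPM in libraries 1 to 6, a range in which library 6 was highest by a small margin. On CPM library 6 was instead lowest for Eef1a1, at 9949 against 11010 to 11680 CPM. Lgals1, a galectin of muscle cells and their matrix, followed at 6146 to 6632 TPM in libraries 1 to 5 and 7880 TPM in library 6. Mylpf and Acta1, the skeletal alpha actin, came next in mean TPM, and Acta1 was at 5274, 5949, 5367, 5378 and 5608 TPM in libraries 1 to 5 and 4089 TPM in library 6. In libraries 1 to 5 the values of Mylpf and Acta1 overlapped, as did those of Acta1 and Rplp1, a ribosomal stalk protein at 4725 to 5452 TPM. Tnnc1, the slow and cardiac troponin C, was at 3945 to 4257 TPM in libraries 1 to 5 and 2362 TPM in library 6. Spp1, the secreted phosphoprotein osteopontin, was at 2089 to 2597 TPM in libraries 1 to 5 and 3918 TPM in library 6. Ranking by CPM, which does not divide by length, put titin among the 10 first. Ttn was at 6123, 7826, 6936, 7007, 8524 and 5340 CPM in libraries 1 to 6, and ranked 814 by TPM because its exons span 116825 bases.

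**Figure D1:**
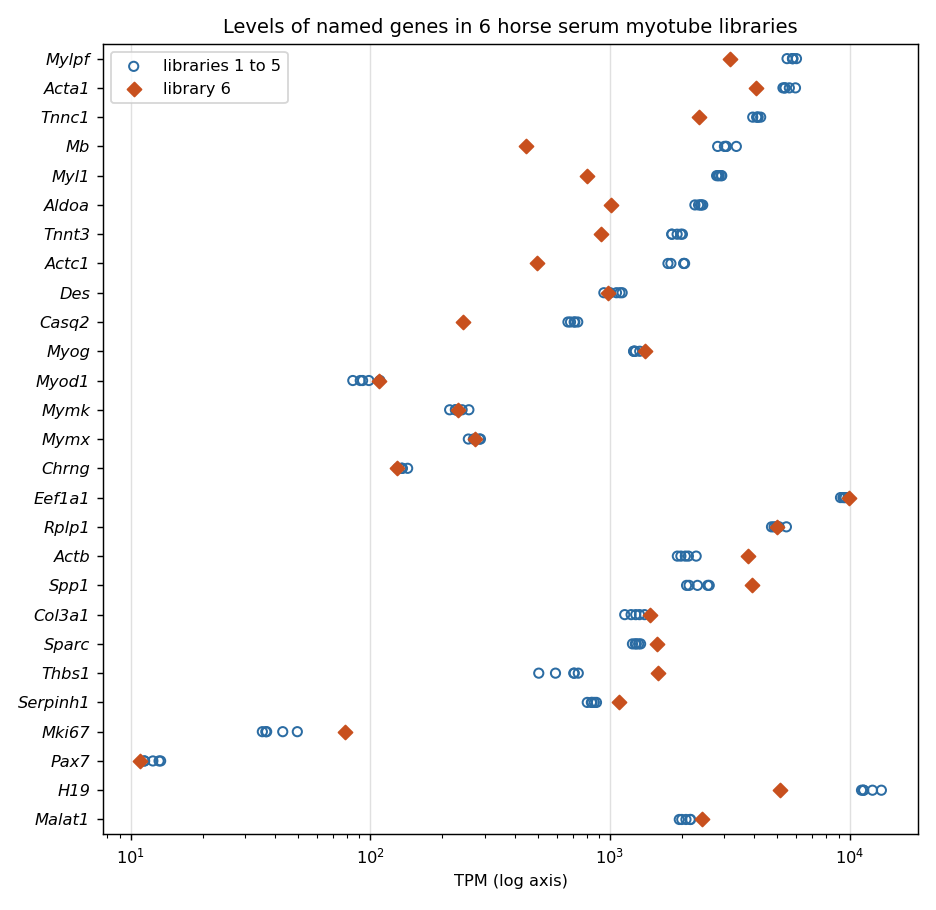
Levels of named genes in TPM (log axis), with open circles for libraries 1 to 5 and a diamond for library 6. Mylpf, Acta1, Tnnc1, Myl1, Tnnt3, Actc1, Mb, Aldoa, Casq2 and H19 had the diamond to the left of the circles. Actb, Spp1, Thbs1 and Mki67 had it to the right, and Des, Mymk, Mymx and Rplp1 had it among them.

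The 250 bases before the start of transcription are shown for 4 muscle genes whose levels the description turns on, taken from RefSeq on GRCm38.p6, with the letters CANNTG, the E-box that MYOD family factors bind, in capitals. For each gene the RefSeq entry nearest to the GENCODE gene start was taken. For the 4 genes shown it lay 0 to 24 bases from that start. Mb had 3 entries, and Acta1, Tnnc1 and Myog had 1 each. Whether these starts were the ones used in the myotubes was not tested. The 4 windows were picked from 8 after the matches were seen.
Acta1 promoter, chr8:123894776-123895025, minus strand: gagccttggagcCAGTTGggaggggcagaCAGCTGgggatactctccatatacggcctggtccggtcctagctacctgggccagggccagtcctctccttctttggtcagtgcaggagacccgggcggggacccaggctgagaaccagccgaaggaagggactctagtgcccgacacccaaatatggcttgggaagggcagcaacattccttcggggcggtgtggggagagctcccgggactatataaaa
Tnnc1 promoter, chr14:31208062-31208311, plus strand: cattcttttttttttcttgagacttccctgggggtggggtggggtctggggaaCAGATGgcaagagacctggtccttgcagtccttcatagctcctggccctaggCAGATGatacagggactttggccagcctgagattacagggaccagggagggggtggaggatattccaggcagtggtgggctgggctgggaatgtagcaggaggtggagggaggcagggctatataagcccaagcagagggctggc
Mb promoter, chr15:77050669-77050918, minus strand: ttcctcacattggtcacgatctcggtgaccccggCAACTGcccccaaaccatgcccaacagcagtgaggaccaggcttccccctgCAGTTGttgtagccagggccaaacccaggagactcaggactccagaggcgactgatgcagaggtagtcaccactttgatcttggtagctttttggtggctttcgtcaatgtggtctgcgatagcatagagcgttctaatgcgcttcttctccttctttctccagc
Myog promoter, chr1:134289754-134290003, plus strand: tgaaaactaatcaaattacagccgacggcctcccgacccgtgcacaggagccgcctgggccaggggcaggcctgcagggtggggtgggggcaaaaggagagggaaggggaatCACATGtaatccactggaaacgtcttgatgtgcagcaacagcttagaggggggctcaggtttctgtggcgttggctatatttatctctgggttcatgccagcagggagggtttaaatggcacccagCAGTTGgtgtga
Each of these windows held 2 CANNTG matches, while the other 4 windows read, of Mef2c, Mylpf, Myl1 and Actc1, held 2, 1, 1 and 0. The starts used for those 4 lay 0, 2718, 348 and 673 bases from the GENCODE gene start, so the counts are not like for like. The window of Acta1 also held 1 CArG box and 1 TATAAA. Over 32536 promoter windows of the same length, searched on both strands, 66.2% had CANNTG, 13.1% had its form CAGCTG, 1.48% a CArG box, 2.89% a MEF2 site and 12.3% TATAAA, whose letters can overlap a MEF2 site. The 79 windows matched to 65 of 81 gene symbols of the contractile lists, 1 of which was not found in the count table, had CANNTG in 82.3%, CAGCTG in 30.4%, a CArG box in 11.4%, a MEF2 site in 16.5% and TATAAA in 21.5%. For 70 windows matched to 59 of 79 ribosomal protein genes the shares were 48.6%, 4.29%, 1.43%, 1.43% and 4.29%. A match is a run of letters and not an occupied site.

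Contractile genes, from lists of the thick filament, the thin filament and the Z-disc with titin, held 4.80% to 5.12% of all counts in libraries 1 to 5 and 2.80% in library 6 (4.61% ± 0.893, SD, n = 6, and 4.97% ± 0.125, SD, n = 5, without library 6). Of 80 listed genes 74 reached 1 TPM, beside 51.8% of all nuclear protein-coding genes, and 36 reached 100 TPM. The 22 thin filament genes all reached 1 TPM and held 2.17% to 2.25% of counts in libraries 1 to 5 and 1.16% in library 6. The 28 thick filament genes held 1.35% to 1.46% and 0.573%, and 23 reached 1 TPM. The 30 Z-disc and titin genes held 1.24% to 1.51% and 1.06%, with 29 at 1 TPM. Fewer cells with sarcomeres and less sarcomere RNA per cell cannot be told apart in such bulk samples.

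In the thick filament Myl1, the fast essential light chain, was at 2929, 2858, 2827, 2914 and 2788 TPM in libraries 1 to 5 and 803.4 TPM in library 6. The processed copy Mylf-ps, 28.6% of whose 100-base windows were shared with Myl1, was listed at 2246 to 2713 TPM in libraries 1 to 5 and 641.1 TPM in library 6, so reads of Myl1 may be split between both. Mybph, a myosin-binding protein, was at 733 to 858 TPM and, in library 6, 585 TPM. Among myosin heavy chains Myh1, an adult fast chain, was at 430.6, 517.4, 571.7, 604.2 and 500.4 TPM in libraries 1 to 5 and 150.3 TPM in library 6, and Myh3, the embryonic chain, was at 444.6, 529, 449, 461.3 and 489.7 TPM and 262.8 TPM. The ranges of both in libraries 1 to 5 overlapped. Myh8, the neonatal chain, was at 108 to 136 TPM and 16.7 TPM in library 6. Myh7, the slow chain, was at 62.8 to 88.1 TPM in libraries 1 to 5 and 13.5 TPM in library 6.

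In the thin filament Tnnt3, the fast troponin T, was at 1813, 2007, 1977, 1908 and 1813 TPM in libraries 1 to 5 and 918.2 TPM in library 6. Actc1, the cardiac alpha actin that developing skeletal muscle also makes, was at 1747, 2050, 2035, 1797 and 2034 TPM and, in library 6, 494.5 TPM. Library 6 was outside the other 5 for both. At the Z-disc the intermediate filament Des was at 943.6 to 1125 TPM in libraries 1 to 5, with library 6 inside that range at 977.9 TPM. Ankrd1, a stretch-responsive ankyrin repeat protein of the titin filament, was at 511 to 591 TPM and 661 TPM in library 6. Actn3, the fast alpha-actinin, was at 317 to 385 TPM and 285.2 TPM in library 6.

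Isoform use was read as the share of TPM of a pair. Embryonic and neonatal Myh3 and Myh8 made up 52.4%, 51.4%, 45.1%, 44.2% and 50% of the sum with the adult fast Myh1, Myh2 and Myh4 in libraries 1 to 5 and 61.4% in library 6. The slow chain Myh7 made up 7.88% to 12.3% of its sum with the same adult fast chains in libraries 1 to 5 and 7.11% in library 6. Troponin I was divided evenly, the slow Tnni1 holding 45.5% to 47.4% in libraries 1 to 5 and 49.1% in library 6. Troponin C was mostly the slow and cardiac Tnnc1, at 68.2% to 71.5% in libraries 1 to 5 and 82.7% in library 6. For troponin T the cardiac and slow Tnnt2 and Tnnt1 held 29.5% to 32.0% and 38.5%. Cardiac Actc1 was 24.9% to 27.5% of alpha actin in libraries 1 to 5 and 10.8% in library 6, the only developmental isoform of the contractile pairs whose share was lower in library 6 than in each other library. Embryonic Myl4 was 11.7% to 12.7% of its sum with Myl1 and 16.7% in library 6.

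Nonmuscle forms of actin, alpha-actinin and creatine kinase had a larger share in library 6 than in each other library. Cytoplasmic Actb and Actg1 made up 25.1% to 28.2% of their sum with the sarcomeric actins Acta1 and Actc1 in libraries 1 to 5 and 50.1% in library 6. Actn1 and Actn4 made up 18.9% to 23.0% of alpha-actinin and 37.0% in library 6. The brain creatine kinase Ckb made up 19.3% to 24.7% of its sum with the muscle form Ckm in libraries 1 to 5 and 49.4% in library 6.

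**Figure D2:**
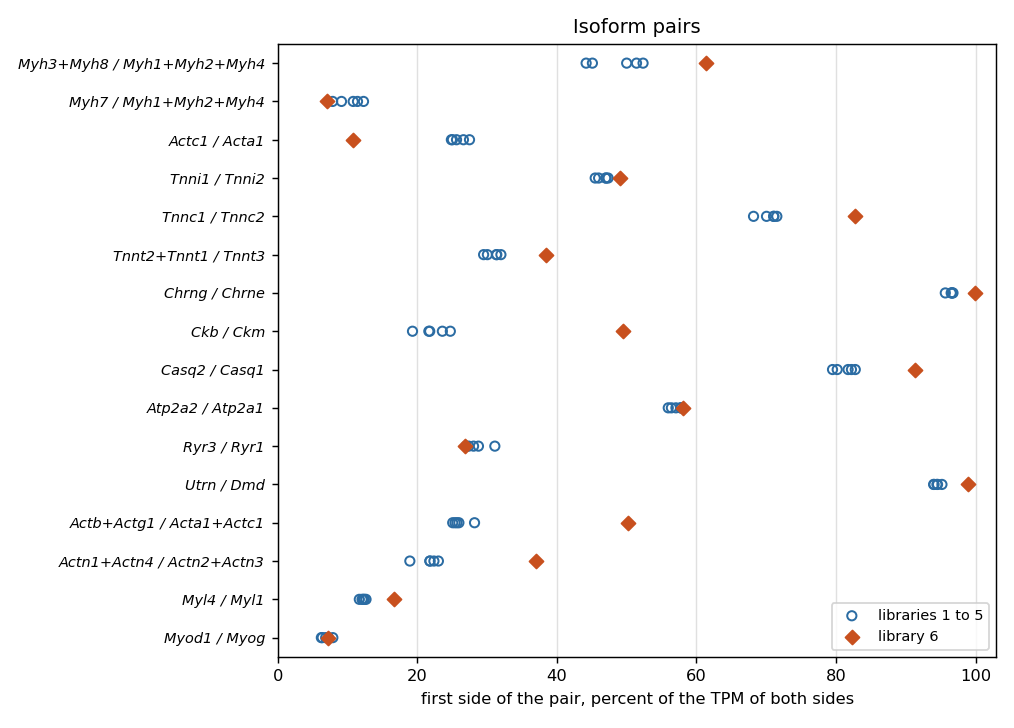
Share of the first side of each isoform pair in percent of the TPM of both sides, with open circles for libraries 1 to 5 and a diamond for library 6. The diamond lay far from the circles for creatine kinase, cytoplasmic against sarcomeric actin, alpha-actinin and Actc1, and beside or among them for troponin I, SERCA, the ryanodine receptors and the MYOD pair.

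Genes of excitation-contraction coupling, which carry the electrical signal to calcium release, held 0.628% to 0.670% of counts in libraries 1 to 5 and 0.420% in library 6, and 27 of 29 reached 1 TPM. Casq2, the cardiac and slow calsequestrin that stores calcium, was at 709.4, 734.1, 684.8, 668.2 and 713.8 TPM in libraries 1 to 5 and 244.4 TPM in library 6, and made up 79.5% to 82.8% of calsequestrin in libraries 1 to 5 and 91.3% in library 6. Bin1, which shapes the T-tubule membrane, was at 464 to 487 TPM and 415.9 TPM. The cation channel Tmem38a was at 376 to 398 TPM in libraries 1 to 5 and 250 TPM in library 6. The calcium pumps were close to each other. Atp2a2 was at 340 to 413 TPM in libraries 1 to 5 and 242.5 TPM in library 6, and held 56.0% to 57.8% of its sum with the fast form Atp2a1, beside 58.1% in library 6. The ryanodine receptor Ryr3 of immature muscle held 27.0% to 31.1% of its sum with Ryr1 in libraries 1 to 5 and 26.9% in library 6.

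Creatine kinase, myoglobin and glycolytic genes of the energy list held 1.14% to 1.28% of counts in libraries 1 to 5 and 0.536% in library 6, and 20 of 22 reached 1 TPM. Mb, the oxygen-binding myoglobin, was at 3370, 3059, 3054, 3005 and 2816 TPM in libraries 1 to 5 and 445.6 TPM in library 6, and 30.7% of its windows were shared with the overlapping gene Gm49540. Aldoa, the muscle aldolase, was at 2405, 2440, 2388, 2344 and 2263 TPM and, in library 6, 1012 TPM. Eno3, the muscle enolase, was at 1485 to 1690 TPM in libraries 1 to 5 and 1234 TPM in library 6, and Ldha, lactate dehydrogenase A, at 989 to 1128 TPM and 473.1 TPM. All of the 4 were lower in library 6 than in each other library. Ckm was at 319 to 373 TPM in libraries 1 to 5 and 147.5 TPM in library 6, and Ckb at 82.9 to 105 TPM and 144.1 TPM, so the 2 creatine kinases lay on opposite sides of the other libraries.

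The acetylcholine receptor and neuromuscular junction genes, present here without nerve, held 0.217% to 0.243% of counts in libraries 1 to 5 and 0.258% in library 6, and all 15 reached 1 TPM. Chrna1, the alpha subunit, was at 280.3, 316.3, 339.9, 304.4 and 321.1 TPM in libraries 1 to 5 and 361.6 TPM in library 6. Chrng, the fetal gamma subunit, was at 130 to 143.2 TPM in libraries 1 to 5 and 129.8 TPM in library 6, while the adult epsilon subunit Chrne was at 4.51 to 6.16 TPM and 0.149 TPM. The fetal subunit thus held 95.7% to 96.8% of their sum in libraries 1 to 5 and 99.9% in library 6. Rapsn, which clusters the receptor, was at 109 to 119 TPM in libraries 1 to 5 and 145.5 TPM in library 6.

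Genes of the dystrophin-glycoprotein complex, which ties the cytoskeleton to the matrix, held 0.334% to 0.347% of counts in libraries 1 to 5 and 0.300% in library 6. Itga7, the laminin-binding integrin chain of muscle, was at 272 to 296 TPM and 310.1 TPM in library 6, and Cav3, the muscle caveolin, at 285 to 323 TPM and 191.1 TPM. Dmd itself was low, at 1.78 to 2.60 TPM in libraries 1 to 5 and 0.477 TPM in library 6, whereas its homologue Utrn was at 35.0 to 40.9 TPM and 42.1 TPM. Utrophin made up 94.0% to 95.2% of their sum in libraries 1 to 5 and 98.9% in library 6.

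Myogenic transcription factors and cofactors held 0.361% to 0.381% of counts in libraries 1 to 5 and 0.402% in library 6, with 28 of 30 at 1 TPM. After Myog the highest were Rbm24, an RNA-binding splicing regulator, at 104 to 115 TPM in libraries 1 to 5 and 118.2 TPM in library 6, and Myod1, at 84.5, 90.8, 109.7, 98.7 and 92.9 TPM in libraries 1 to 5 and 109.1 TPM in library 6. The ranges of Rbm24 and Myod1 over the libraries overlapped. Myod1 made up 6.26% to 7.90% of its sum with Myog, and library 6 was inside that range at 7.24%.

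Fusion genes held 0.344% to 0.372% of counts in libraries 1 to 5 and 0.427% in library 6, and 21 of 28 reached 1 TPM. Mymk and Mymx encode the 2 muscle-specific membrane proteins of fusion. Mymx was at 256.6, 269.5, 288.2, 275.2 and 285.3 TPM in libraries 1 to 5 and 274.4 TPM in library 6. Mymk was at 214.4, 226.5, 241.7, 227.2 and 257.9 TPM and 232 TPM. Library 6 was inside the range of the others for both on TPM, and on CPM it was lowest, at 113.5 against 129.5 to 138.3 CPM for Mymx and 141.2 against 159.3 to 181.7 CPM for Mymk. The M-cadherin gene Cdh15 was at 182 to 227 TPM in libraries 1 to 5 and 347.5 TPM in library 6, and Itgb1, the common beta integrin, was at 625 to 689 TPM and 667.6 TPM.

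Genes of satellite cells and undifferentiated myoblasts remained measurable. They held 0.341% to 0.359% of counts in libraries 1 to 5 and 0.340% in library 6, and 33 of 38 reached 1 TPM, although leading members such as Itgb1 are not confined to myoblasts. Pax7, the factor of muscle stem cells, was at 11.4, 13.3, 12.4, 11.4 and 13.1 TPM in libraries 1 to 5 and 10.9 TPM in library 6. Myf5, an early MYOD family member, was at 16.3 to 22.2 TPM with library 6 inside at 18.8 TPM. Asb5, a gene described in activated satellite cells, was at 372 to 435 TPM and 301.6 TPM in library 6. Id3, an inhibitor of the MYOD family, was at 5.97, 8.89, 11.7, 11.9 and 10.7 TPM in libraries 1 to 5 and 24.5 TPM in library 6. Of these, Asb5 and, by a small margin, Pax7 were lowest and Id3 highest in library 6.

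Genes of DNA replication and mitosis were low but present, as all 50 reached 1 TPM and 1 reached 100 TPM. They held 0.290% of counts in library 1, 0.208% to 0.236% in libraries 2 to 5 and 0.377% in library 6. Mki67, a protein of cycling cells, was at 49.6, 36.7, 35.5, 37.0 and 43.1 TPM in libraries 1 to 5 and 78.6 TPM in library 6. Top2a, the DNA topoisomerase of dividing cells, was at 91.9, 62.2, 61.4, 72.2 and 74.7 TPM and 105.4 TPM. On TPM both were highest in library 6 and second in library 1, and on CPM Top2a was at 257.7 to 407.3 CPM in libraries 1 to 5 with library 6 inside at 382.6 CPM. Ccnb2, a mitotic cyclin, was at 54.5 to 76.2 TPM in libraries 1 to 5 and 142.8 TPM in library 6. Rrm2, the ribonucleotide reductase subunit, was at 92.2 to 116 TPM and 121.4 TPM, and Pcna, the replication clamp, at 55.1 to 68.3 TPM and 81.4 TPM. The G1 cyclin Ccnd1 was at 22 to 35.8 TPM with library 6 inside at 34.8 TPM.

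Cell cycle exit genes held 0.144% to 0.149% of counts in libraries 1 to 5 and 0.159% in library 6. Cdkn1a, the p21 inhibitor that accompanies exit in myotubes, was at 158.2, 159.8, 153.4, 162.5 and 168.9 TPM in libraries 1 to 5 and 196.8 TPM in library 6, and Gadd45a, a growth arrest gene, at 203 to 244 TPM and 320.9 TPM. Both stood above every cyclin named here.

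Matrix genes were described in 3 lists. Collagen chains held 1.38% to 1.55% of counts in libraries 1 to 5 and 1.74% in library 6, with 21 of 44 chains at 1 TPM. Col3a1, a fibrillar chain, was at 1153, 1226, 1329, 1395 and 1282 TPM in libraries 1 to 5 and 1465 TPM in library 6. Col5a2, a regulator of fibril diameter, was at 550 to 601 TPM and 746.4 TPM. Col6a1, of the microfibrils around muscle cells, was at 331 to 379 TPM in libraries 1 to 5 and 401.1 TPM in library 6, and Col1a2, of type I collagen, at 220 to 258 TPM and 385.5 TPM. Library 6 was highest for each of the 4 on TPM, but on CPM it was inside the range of the others for Col3a1, at 5794 against 5565 to 6700 CPM, and Col6a1, at 707.7 against 676 to 813 CPM. In libraries 1 to 5 the TPM ranges of the 4 did not overlap.

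Matrix glycoproteins and proteoglycans held 1.73% to 1.99% of counts in libraries 1 to 5 and 2.65% in library 6, and 54 of 74 reached 1 TPM. After Spp1 came Sparc, a collagen-binding glycoprotein, at 1276, 1318, 1343, 1289 and 1242 TPM in libraries 1 to 5 and 1571 TPM in library 6. Thbs1, thrombospondin 1, was at 504.8, 737.9, 710, 592.9 and 706.7 TPM and 1588 TPM, the widest gap among the leading members. The proteoglycan Ogn went the other way, at 585 to 730 TPM in libraries 1 to 5 and 546.2 TPM in library 6. Matrix proteases, their inhibitors and collagen-modifying enzymes held 0.837% to 0.897% and 0.920%, with 44 of 52 at 1 TPM. The collagen chaperone Serpinh1 was at 805 to 879 TPM in libraries 1 to 5 and 1089 TPM in library 6. P4hb, of the collagen hydroxylase, was at 694 to 782 TPM with library 6 inside at 772 TPM. Timp1, an inhibitor of metalloproteinases, was at 354 to 414 TPM and 701.3 TPM.

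Ribosomal proteins were the list with the largest share, at 5.29% to 5.83% of counts in libraries 1 to 5 and 5.22% in library 6, and 77 of 79 reached 100 TPM. Nuclear genes of oxidative phosphorylation held 1.29% to 1.35% and 1.1%, all 48 reached 1 TPM and 42 reached 100 TPM. The nonmuscle cytoskeleton list held 2.03% to 2.12% in libraries 1 to 5 and 2.63% in library 6. Its leading member Actb was at 1912, 2126, 2291, 1978 and 2064 TPM in libraries 1 to 5 and 3754 TPM in library 6. Replication-dependent histones, whose messages lack a poly(A) tail, held 0.356% to 0.498% of counts in libraries 1 to 5, with library 6 inside at 0.442%.

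**Figure D3:**
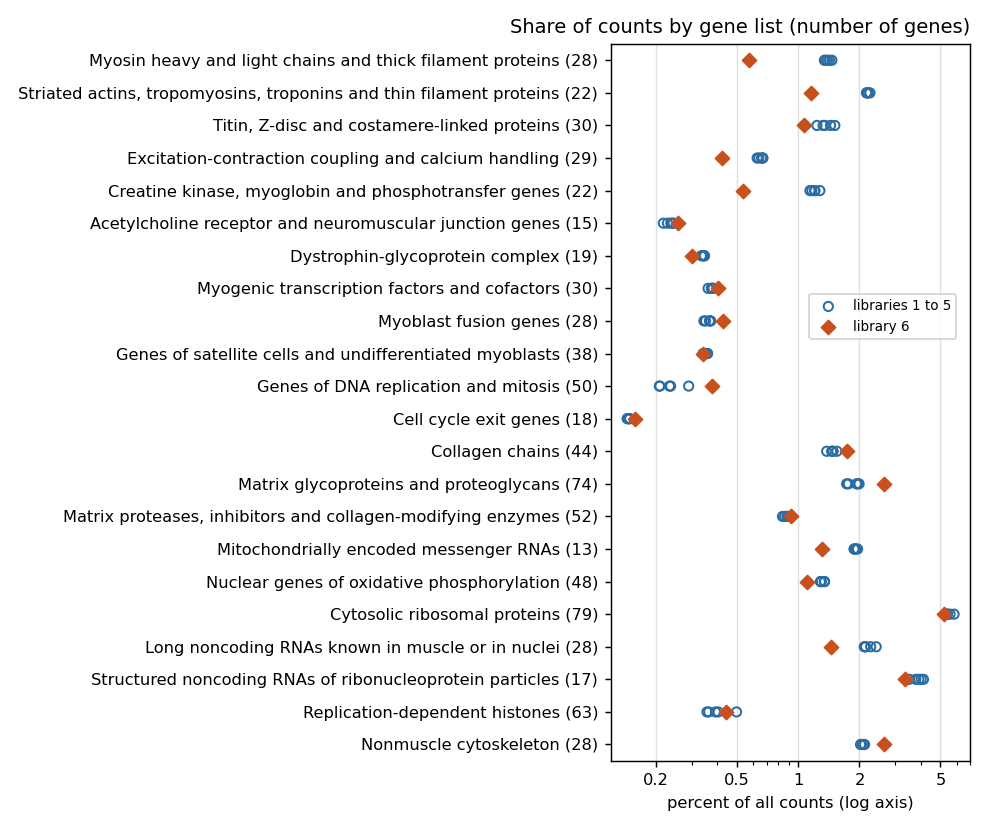
Share of all counts held by each gene list, in percent (log axis), with open circles for libraries 1 to 5 and a diamond for library 6. Ribosomal proteins held 5.22% to 5.83% over the 6 libraries, and the diamond lay left of the circles for the thick filament, thin filament and energy lists and right of them for replication and matrix glycoproteins.

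The spread of single genes was measured over the 6 libraries and again without library 6. A gene was called variable where its deviance under Poisson counting error exceeded a chi-square at an adjusted p of 0.05 or less (edgeR, Benjamini-Hochberg adjustment over all genes that passed its count filter). With 6 libraries 8431 of 13104 genes (64.3%) varied beyond counting error, and without library 6 the number was 3553 of 13280 (26.8%). The common biological coefficient of variation, the part of the spread that counting does not give, was 14.2% with library 6 and 6.46% without it. The CV beyond counting error reached 20% in 1796 genes (13.7%) with library 6 and in 507 (3.82%) without it, and 40% in 183 and 24. Leaving out any one of libraries 1 to 5 instead gave 7965 to 8427 variable genes and a coefficient of 14.8% to 15.6%. Among 9319 genes with a mean of at least 10 CPM the median CV, counting error included, was 8.91% over 6 libraries and 5.65% over 5, and 484 and 27 genes exceeded 25%.

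**Figure D4:**
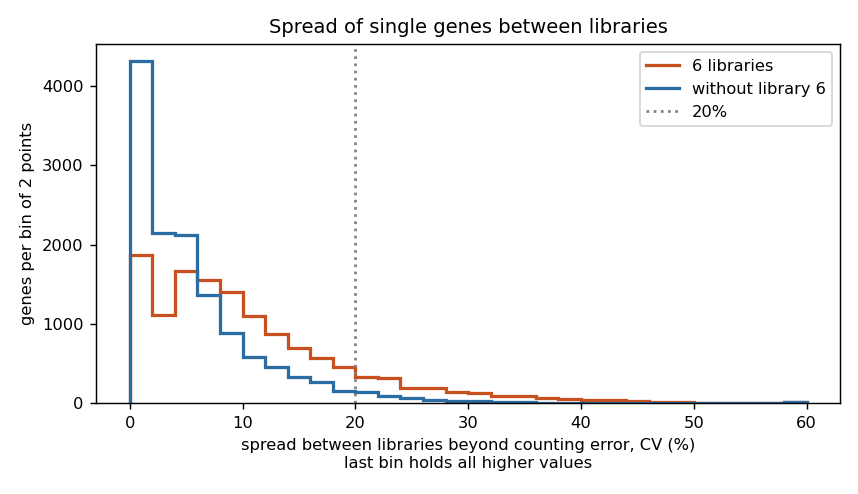
Number of genes by their coefficient of variation between libraries beyond counting error (bins of 2 percentage points, with the last holding all higher values), for 6 libraries and without library 6. Without library 6 the curve is shifted to the left, with 4313 genes in the first bin against 1864 for 6 libraries.

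The lists differed in how much of their spread went with library 6. Of 73 contractile genes that passed the count filter, 71 varied beyond counting error over 6 libraries and 63 without library 6, and a CV of 20% was reached by 50 and by 2. Over all genes tested 64.3% and 26.8% varied beyond counting error, and 13.7% and 3.82% reached a CV of 20%. Genes with more counts are called variable at a smaller spread. The median CV of the contractile genes beyond counting was 24.7% with library 6 and 6.64% without it, against 8.5% and 4.07% over all genes tested. Nuclear oxidative phosphorylation genes had 11.4% and 3.97%, and ribosomal proteins 7.87% and 5.21%. Replication and mitosis genes kept much of their spread, at 22.8% and 15.4%, with a CV of 20% in 31 and 11 of 50. Replication-dependent histones were as variable without library 6 as with it, at 17.2% and 18.0%, with 18 and 21 of 57 at 20%. Myogenic factors had 8.79% and 4.9%, and collagens 12.6% and 5.74%.

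The most variable genes of libraries 1 to 5 included small nuclear RNA genes. Rnu1b2, a U1 small nuclear RNA gene, had 2102 counts in library 5 and none in the other 5 libraries. Gm24305, another U1 gene, had 16903, 14920, 14082, 16813, 2 and 18591 counts in libraries 1 to 6. The pair thus mirrored each other in library 5, although 2102 counts of Rnu1b2 were far fewer than Gm24305 had elsewhere. Their transcripts, from GENCODE on GRCm38, are shown because they are near copies, with 157 identical aligned positions, the 7 differing bases of Gm24305 and the 8 of Rnu1b2 being in capitals.
Gm24305, chr12:54734555-54734718, minus strand: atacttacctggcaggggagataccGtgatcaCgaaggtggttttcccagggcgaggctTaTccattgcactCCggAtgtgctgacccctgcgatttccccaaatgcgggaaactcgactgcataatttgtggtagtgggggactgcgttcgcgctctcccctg
Rnu1b2, chr3:96374021-96374185, plus strand: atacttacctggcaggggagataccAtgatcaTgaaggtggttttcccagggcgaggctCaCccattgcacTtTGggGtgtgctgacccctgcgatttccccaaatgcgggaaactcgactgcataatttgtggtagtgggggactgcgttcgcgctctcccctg
All 100-base windows of Rnu1b2 and 60% of those of Gm24305 were found in other annotated genes. How reads with several matches were counted was not given in the sources used here, so the level of a single U1 gene is uncertain.

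Library 5 also had the highest level of 2 other genes among the most variable. CT010467.1, a gene of ribosomal RNA on chromosome 17, was at 286.9, 312.5, 87.5, 305, 1807 and 594.4 CPM in libraries 1 to 6. Lars2, the protein-coding gene of the mitochondrial leucyl-tRNA synthetase, was at 22.9, 27.6, 11.6, 22.3, 127.7 and 49.98 CPM. The order of the libraries was similar for both, with libraries 5 and 6 highest and library 3 lowest. No window of the longest Lars2 transcript, of 3894 bases, was shared. The exons of Lars2 span 11089 bases, and those outside that transcript were not checked. Gm10800 and Gm10801, neighbouring predicted genes on chromosome 2, were highest in library 2. Gm10800 was at 339.5, 866.2, 304, 68.1, 349.1 and 52.8 CPM and Gm10801 at 39.4, 338.7, 36.1, 19.9, 131.7 and 12.4 CPM in libraries 1 to 6. A histone H2B gene, Hist1h2br, was at 35.5, 6.19, 5.01, 24.4, 5.42 and 6.10 CPM, with libraries 1 and 4 high, and 85.8% of its windows were shared with other histone genes.

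Spire1, an actin nucleator, had the smallest CV among genes of at least 10 CPM, 0.704%, at 101.6, 101.4, 99.9, 100.6 and 99.99 CPM in libraries 1 to 5, with library 6 inside that range. Polr2m was at 134.2 to 137.1 CPM with a CV of 0.913%, and the secretory pathway genes Tmed10, Tmed2 and Canx had CVs of 1.12%, 1.13% and 1.38%. Cdc37, a kinase co-chaperone, had 1.33%, and Ilk, Phf3, Smc6 and BC004004 had 1.38%, 1.44%, 1.47% and 1.49%. Library 6 lay inside the range of the others for Spire1, Polr2m, Tmed10, Tmed2, Canx, Smc6 and BC004004. It lay above that range for Ilk and Cdc37 and below it for Phf3. All genes of this paragraph were picked as the smallest of 9319 values. For each of them but Canx, at 0.938%, the CV beyond counting error was 0, as it was for 1566 of 13104 genes tested. Their order is therefore not a ranking of steadiness.

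Library 6 was then described list by list on CPM scaled by TMM, with no test. Over all 13104 genes the median log2 ratio of library 6 to the mean of the other 5 was 0.02, 554 genes were at least 2-fold lower and 135 at least 2-fold higher. When CPM was scaled by total counts alone, library 6 was lowest in 2966 and highest in 6756 genes, the median moved to 0.15, a shift of 0.13, and a scale-dependent split is marked below. Of 73 contractile genes 67 were lowest in library 6 and 2 highest, with a median log2 ratio of -1.1. The thick filament list had 23 of 23 lowest (median -1.56), the thin filament list 20 of 21 (-1.13), the energy list 15 of 19 (-1.36), the Z-disc list 24 of 29 (-0.79) and the coupling list 24 of 27 (-0.73). Under total counts the medians of these 5 lists were -1.43, -1, -1.23, -0.66 and -0.60.

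Of 48 oxidative phosphorylation genes 46 were lowest in library 6, with a median of -0.42, and under total counts 42 were, with -0.29. Ribosomal proteins were lowest in 70 of 77 under TMM (median -0.23) and in 45 under total counts (-0.10), while on TPM 18 were lowest and 23 highest (0.01), so the direction of this list depended on the scale. Of 50 replication and mitosis genes 40 were highest in library 6 and 2 lowest, with a median of 0.60, and under total counts 43 and 2 (0.73). Matrix glycoproteins were highest in 34 of 55 and lowest in 12 (0.27), collagens in 13 and 8 of 28 (0.06) and the nonmuscle cytoskeleton in 14 and 7 of 28 (0.14). Myogenic factors were highest in 12 and lowest in 10 of 27 (0.11), near the shares of 36.9% and 33.3% over all genes. The junction and progenitor lists had medians of -0.07 and -0.06 that turned to 0.06 and 0.07 under total counts.

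**Figure D5:**
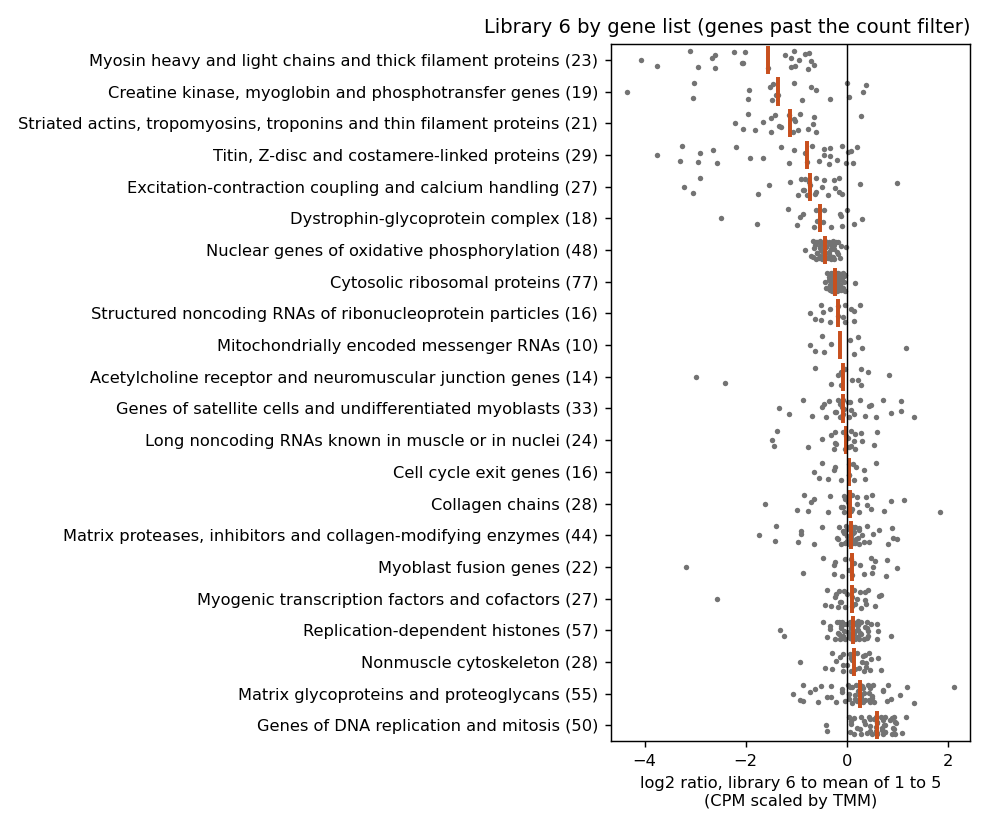
Log2 ratio of library 6 to the mean of libraries 1 to 5 for each gene that passed the count filter (grey points) and the list median (orange bar), on CPM scaled by TMM. The list medians run from -1.56 for the thick filament to 0.60 for DNA replication and mitosis, every thick filament point lies left of 0, and members of most other lists lie on both sides.

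Among the 10 genes with the smallest ratio of library 6 to the others, taken from those of at least 10 CPM, Ckmt2, the mitochondrial creatine kinase of muscle, was at 66.8, 61.2, 53.4, 68.3 and 55.5 CPM in libraries 1 to 5 and 2.997 CPM in library 6, a ratio of 0.0491. Mybpc1, the slow myosin-binding protein C, was at 83.5 to 107.5 CPM and 5.79 CPM. Myot, the Z-disc protein myotilin, was at 109.3 to 123.4 CPM and 8.48 CPM. None of them overlapped between library 6 and the others, which their choice by the smallest ratio made all but certain. Over all 13104 genes library 6 was lowest in 33.3%. Myl2, the slow and cardiac regulatory light chain, was at 50.7 to 70.0 CPM in libraries 1 to 5 and 4.32 CPM in library 6, and the carbonic anhydrases Car9 and Car3 were at 230.5 to 352.7 and 345.1 to 442.9 CPM in libraries 1 to 5 and at 20.6 and 32.5 CPM in library 6. The secreted peptide gene Apln was at 58.5 to 87.1 CPM and 5.59 CPM. Ppp1r3a, a glycogen-targeting phosphatase subunit, had a ratio of 0.0714, and Armh4 0.0618. Rnu1b2, at 0 in library 6, belongs to the same set only through library 5.

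Among the 10 genes with the largest ratio Gm24514, a miscellaneous RNA gene, led with 237.3 CPM in library 6 against 1.28 to 23.4 CPM in libraries 1 to 5. Col8a2, a short-chain collagen, was at 10.6, 11.3, 11.6, 12.1 and 12.9 CPM in libraries 1 to 5 and 42.3 CPM in library 6, a ratio of 3.62. The glutamate transporter Slc1a3 was at 7.29 to 8.49 CPM and 24.5 CPM, a ratio of 3.12. The adhesion molecule Cadm1, at 11.5 to 13.9 and 32.6 CPM, and the matrix glycoprotein Thbs2, at 115 to 134.1 and 319.7 CPM, had ratios of 2.58 and 2.53. Trabd2b, Eps8, Fzd1, Spn and Frrs1 had ratios of 2.53, 2.52, 2.48, 2.48 and 2.47. In each of these genes library 6 was above every other library, which their choice by the largest ratio made all but certain. Over all 13104 genes library 6 was highest in 36.9%.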

How the data were processed

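Whole-number read counts per Ensembl gene were deposited by the authors in 1 table. Per the submitters' processing notes the tools were STAR 2.7.3a, featureCounts 1.6.3 and DESeq2 1.26.0. The build taken for annotation was GRCm38 (GENCODE M21), in which 55227 of 55487 genes were found, the other 260 holding at most 0.00282% of counts. For 113 symbols shared by several genes the gene with most counts was used. Strand and multiple-match settings of the counting were not given in the sources used here.

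From the counts, shares of the library total, CPM scaled by TMM (edgeR 4.0.16, R 4.3.3) and TPM over the union of exons were computed. Libraries were grouped by their labels, and the numbers 1 to 6 follow the labels. Spread was tested with edgeR against Poisson error on the genes passing filterByExpr, after a check on simulated data. Totals of 13285472 to 18254882 counts leave CVs of genes near 10 CPM partly to counting. Shared sequence was counted as 100-base windows of the longest transcript of a gene found in transcripts of other genes. Exons outside that transcript were not checked.

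The genes named were drawn from the 20 with the highest mean CPM and TPM, the 4 highest of each list, isoform pairs, cell type markers, the 3 highest per biotype, and, from 10 CPM, the 10 extremes of CV and of the ratio of library 6 to the rest. Not all of these are described, and 1 of them is not reported here. Members, lists and rule were chosen with earlier results of these data known. Alternatives were other scalings (DESeq2 1.42.0 size factors, total counts), filters, thinning, lengths, thresholds and leaving out each library.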

Additional observations from a re-analysis of the deposited data

Results flagged for a closer look

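Of 157 values examined over the 6 libraries, 92 had 1 library whose gap to the nearest other library exceeded Dixon's 95% critical share of the whole range, which chance gives in about 1 in 20 groups of independent values. These values are not independent, since they come from the same libraries, and many belong to genes taken for an extreme CV or ratio of library 6, so their number is not to be read against that rate. Library 6 was the distant one in 85 values, library 5 in 5 and library 2 in 2. Over all 13104 genes tested 2651 had such a gap, 2379 of them in library 6. No explanation was tested.

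Library 6 stood apart in its shares of counts for long noncoding genes (1.90%), nuclear protein-coding genes (91.1%) and mitochondrial messenger RNA (1.31%). H19 and mt-Co1, each lower in library 6, held much of the long noncoding and mitochondrial messenger shares. Among the lists its shares were distant for contractile genes together (2.80%), the thick filament (0.573%), the thin filament (1.16%), coupling (0.420%), energy (0.536%), dystrophin complex (0.300%), fusion (0.427%), cell cycle exit (0.159%), matrix glycoproteins (2.65%), oxidative phosphorylation (1.1%), long noncoding RNAs (1.45%) and nonmuscle cytoskeleton (2.63%). The marker lists of macrophages (0.00113%), endothelium (0.0314%), fibro-adipogenic cells (0.114%), adipocytes (0.00517%) and bone (0.0246%) did likewise. Library 5 was distant for nuclear ribosomal RNA (0.18%).

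Isoform shares with library 6 distant were those of Actc1 (10.8%), Tnnc1 (82.7%), Tnnt2 and Tnnt1 (38.5%), Chrng (99.9%), Ckb (49.4%), Casq2 (91.3%), Utrn (98.9%), cytoplasmic actin (50.1%), nonmuscle alpha-actinin (37.0%) and Myl4 (16.7%).

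In TPM, library 6 was distant and lower for mt-Co1 (17810), H19 (5124), Mylpf (3177), Acta1 (4089), Tnnc1 (2362), Myl1 (803.4), Tnnt3 (918.2), Actc1 (494.5), Myh3 (262.8), Myh7 (13.5), Casq2 (244.4), Bin1 (415.9), Tmem38a (250), Mb (445.6), Aldoa (1012), Ldha (473.1), Ckm (147.5), Cav3 (191.1) and Chrne (0.149). It was distant and higher for Lgals1 (7880), S100a4 (3948), Spp1 (3918), Actb (3754), Acta2 (2582), Sparc (1571), Thbs1 (1588), Serpinh1 (1089), mt-Nd1 (1055), Col5a2 (746.4), Timp1 (701.3), mt-Cytb (688.2), Col1a2 (385.5), Cdh15 (347.5), Gadd45a (320.9), Cdkn1a (196.8), Rapsn (145.5), Ckb (144.1), Ccnb2 (142.8), mt-Co2 (89.4), Mki67 (78.6) and Id3 (24.5). On TPM library 6 was highest in 62.9% and lowest in 16.2% of all genes tested. On CPM it was inside the range of the others for Cdkn1a, and its ratio to their mean was 1.03 for Sparc and 1.06 for Lgals1.

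In CPM, library 6 was distant and lower for Ckmt2 (2.997), Mybpc1 (5.79), Armh4 (2.49), Car9 (20.6), Car3 (32.5), Myot (8.48), Myl2 (4.32) and Apln (5.59), and higher for Col8a2 (42.3), Slc1a3 (24.5), Cadm1 (32.6), Thbs2 (319.7) and Gm24514 (237.3). Library 5 was distant for Gm24305 (0.121 CPM), Rnu1b2 (126.6 CPM), CT010467.1 (1807 CPM) and Lars2 (127.7 CPM), and library 2 for Gm10800 (866.2 CPM) and Gm10801 (338.7 CPM).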

How the results depend on the processing

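Leaving out libraries in turn gave 3553 to 8427 variable genes (8431 with all 6), a biological coefficient of variation of 6.46% to 15.6% (14.2%) and 507 to 2160 genes with a CV of 20% (1796), the lowest value of each being that without library 6. The last count was 7428 with no filter beyond 1 count and 183 at 40%. Library 6 was lowest in 4360 genes and highest in 4834 under TMM, and in 2966 and 6756 under total counts.

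Without mitochondrial genes in the total, shares of counts became 92.1% for nuclear protein-coding genes (88.7%), 0.394% for myogenic factors (0.380%), 0.363% for progenitor genes (0.350%), 0.154% for cell cycle exit (0.149%) and 0.913% for matrix processing (0.880%). Pseudogenes of at least 1 CPM held 0.609% (0.658%). With the longest transcript as gene length, shares of all TPM became 0.152% for the dystrophin complex (0.137%), 0.186% for progenitor genes (0.195%), 0.113% for cell cycle exit (0.101%), 0.453% for collagens (0.360%), 2.15% for mitochondrial messages (2.58%), 1.72% for oxidative phosphorylation (1.41%), 8.82% for ribosomal proteins (7.11%), 21.1% for structured RNAs (25.4%) and 0.985% for histones (1.18%), and isoform shares became 12.5% for Myh7 (9.78%), 41.1% for Tnnt2 and Tnnt1 (32.1%), 58.9% for Atp2a2 (57.2%), 25.3% for Ryr3 (28.2%), 31.9% for nonmuscle alpha-actinin (24.2%) and 9.93% for Myl4 (12.97%). None of these values turned its direction, but the median log2 ratio of library 6 to the others, given for lists in the report, did so under total counts for the junction, progenitor, long noncoding (-0.02 to 0.11), mitochondrial message (-0.12 to 0.01) and macrophage marker (-0.03 to 0.10) lists, and on TPM also for the ribosomal and structured RNA (-0.17 to 0.07) lists. Under the alternatives 471 other values moved by less than the spread or threshold allowed, and of values for single genes 46 moved and 863 did not. No paired analysis was possible because the 6 libraries form 1 group and their numbers are not shared with the other group. Depth limits the CV of genes near 10 CPM, and counting intervals cover counting error only.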

Other observations

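The signal recognition particle RNAs Rn7s1 and Rn7s2 were at 6544 to 9784 and 6154 to 10720 TPM over the 6 libraries, and all of their 100-base windows were shared with other genes, so the division between them is uncertain. Snora73a, a small nucleolar RNA, was at 1687 to 2308 TPM in libraries 1 to 5 and 2509 TPM in library 6. The highest replication-dependent histone message, Hist1h4h, was at 1195 TPM in library 1, 862.7 to 970.6 TPM in libraries 2 to 5 and 1102 TPM in library 6. Hist1h2ak was at 681.3 TPM in library 1, 452.1 to 561.8 TPM in libraries 2 to 5 and 691.3 TPM in library 6. On TPM libraries 1 and 6 were highest for both, as they were for Mki67 and Top2a. On CPM, library 6 was inside the range of the others for Rn7s2, Snora73a, Hist1h2ak and Hist1h4h and lowest for Rn7s1. On TPM it was highest for Rn7s2 and inside the range of the others for Rn7s1.

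Among nuclear genes of oxidative phosphorylation, the ATP synthase subunits Atp5b and Atp5a1 were at 995 to 1035 and 798.6 to 883.7 TPM over the 6 libraries, and Cox8a, of cytochrome c oxidase, was at 726.6 to 807.2 TPM with library 6 inside the range of the others. In the nonmuscle cytoskeleton list, Tmsb4x, an actin monomer-binding peptide, was at 1834 to 2204 TPM in libraries 1 to 5 and 2828 TPM in library 6, and vimentin (Vim) was at 978.7 to 1101 and 1196 TPM. On CPM, library 6 remained highest for Tmsb4x and lay inside the range of the others for Vim.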
